A study of Rattus norvegicus with 27 samples.

Results

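The genes of ER to Golgi vesicle transport were followed through the terminal differentiation of rat parotid acinar cells. They were chosen as a list of 47 genes for the COPII coat, the COPI coat, cargo receptors, SNAREs and tethers, and each gene was read from its brightest probe set, the one with the highest mean over all 27 arrays. Of the 47 genes 45 had a probe set of their own, out of 14217 genes so represented; the expression of *Sec23a* and *Sec24a* was not analysed here, and both entered only the promoter search.

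Acinar cells of the parotid, a serous salivary gland, were taken from Sprague Dawley rats by laser capture from tissue sections. Samples were collected at 9 ages, from embryonic day 18 (E18) over birth (P0) to postnatal day 25 (P25), with 3 arrays per age. Per the methods of the study each array came from a separate litter. The animals were untreated and of one strain, and heads were sectioned up to P5 but the dissected gland from P9 on. Total RNA was amplified as a whole transcriptome and hybridised to Affymetrix rat genome arrays. The labels of all 27 arrays name input amounts of 1.5 and 4.5 ng without saying which array had which, so the part of the input amount in any difference was not tested. The ages were grouped into the 4 stages of the study, stage 1 (E18, E20 and P0, 9 arrays), stage 2 (P2 and P5, 6 arrays), stage 3 (P9 and P15, 6 arrays) and stage 4 (P20 and P25, 6 arrays). The study drew the stages from these same arrays. Stages 4 and 3 both lie within the dissected glands, whereas the step between stages 3 and 2 coincides with the change of preparation.

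Proteins made for secretion leave the endoplasmic reticulum (ER) in vesicles coated with COPII, which assemble at ER exit sites under the small GTPase SAR1. Vesicles coated with COPI, assembled under the ARF GTPases, carry escaped ER proteins and receptors back. Receptors of the p24, lectin and KDEL receptor families select the cargo, while tethers and SNAREs dock and fuse the vesicles at the Golgi. Serous acinar cells are a classical example of a cell with a large ER and Golgi, since they make and store saliva proteins in bulk.

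Acinar markers were high in the captured cells at the late ages. The mean log2 level of 8 acinar markers was 11.13 to 11.67 on stage 4 arrays and 9.37 to 10.66 on stage 3 arrays, and 6 of the 8 were called higher in stage 4 with none lower. Other cells were also seen. The mean of 6 skeletal muscle markers spanned 5.01 to 9.45 on stage 4 arrays and 4.19 to 13.00 on stage 3 arrays, with the 3 P9 arrays at 10.1 or above. Markers of fibroblasts (5 of 7), myoepithelium (3 of 6), ducts (3 of 6) and epidermis (3 of 6) were called lower in stage 4 than in stage 3. No marker of these 4 lists was called higher, but 3 of the 6 duct and 2 of the 6 epidermis markers had positive changes. Of all probe sets 4.09% were called higher in this comparison and 4.27% lower. The mean of 8 lymphocyte and plasma cell markers did not overlap between the stages, with 6.86 to 7.29 on stage 4 arrays and 5.14 to 5.71 on stage 3 arrays.

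On average, ER to Golgi transport genes were nearly level until P9 and stood higher at P20 and P25. Single genes moved both ways up to P9. *Sec16a*, for example, averaged 7.97 at E18 and 9.12 at P9, and *Copg1* 11.33 and 10.42. The mean log2 level of the 45 genes was 9.11, 9.03, 9.05, 9.13, 9.13 and 9.02 from E18 to P9, 9.26 at P15, 9.79 at P20 and 9.83 at P25. In a moderated F test over the 9 ages 17 of the 45 genes (37.8%) passed an adjusted p of 0.05, where 24.5% of all 31042 probe sets passed, as did 32.6% of the 8548 genes whose mean level lay within the range of the members.

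Between stages 4 and 3, 12 of the 45 genes rose and none fell, where 4.09% of all probe sets were called higher and 4.27% lower. The genes that rose were *Sec16b*, *Mcfd2*, *Tmed3*, *Surf4*, *Arfgap3*, *Cope*, *Lman1*, *Tmed10*, *Gorasp2*, *Kdelr1*, *Copg1* and *Tmed9*. Among genes read from their brightest probe sets, 5.02% of 14217 were called higher, and 5.60% of the 8548 within that range of levels, against 26.7% of the members. The members were chosen with earlier results of these data known. These shares, like those of the F test, therefore describe the list and do not test it. The median change of the 45 genes was 0.61 on the log2 scale, against 0.09 for all probe sets, and 42 of the 45 changes were positive, against 57.1% of all probe sets. On 10 genes every stage 4 array lay above every stage 3 array, where 1.99% of all probe sets did so and 1.36% lay wholly below, and these 10 were all among the 12 called. In these bulk samples, more acinar cells and more RNA per cell cannot be told apart.

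Plasma cell genes moved with this comparison. *Jchain*, the joining chain of polymeric antibodies, was at 10.4 to 11.7 on stage 4 arrays and at 3.80 to 6.20 on stage 3 arrays. *Mzb1*, an ER protein of antibody-secreting cells, was at 8.44 to 11.7 on stage 4 arrays and at 6.42 to 8.21 on stage 3 arrays. *Pou2af1*, a B cell coactivator, was at 4.34 to 7.67 on stage 4 arrays and at 2.54 to 3.67 on stage 3 arrays. These 3 of the 8 markers were called higher, and *Cd79b*, *Tnfrsf17*, *Cd3e*, *Sdc1* and *Ptprc* did not pass the test. With the mean of the 8 markers as a covariate, 0 of the 45 transport genes were called and the calls over all probe sets went down to 4, against 2594 without it. In that fit the changes of the 12 genes remained positive, from 0.13 for *Kdelr1* to 3.82 for *Sec16b*, and 9 of the 12 were larger than without the covariate. Their standard errors were 3.80 to 4.05 times as large, with adjusted p-values of 0.433 to 0.988. The list separates the stages completely, so its level and the stage cannot be told apart in that fit. The P9 arrays were high in muscle markers, and a comparison without them was added after seeing the data. With the 3 arrays of P15 alone as the earlier group, *Tmed3*, *Mcfd2*, *Tmed10* and *Lman1* kept their calls (4 of 45). The median change of the 45 genes was 0.49, against 0.61 with the P9 arrays. The earlier group then held 3 arrays instead of 6, so for the lost calls the smaller group and the absence of P9 cannot be told apart.

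**Figure D1:**
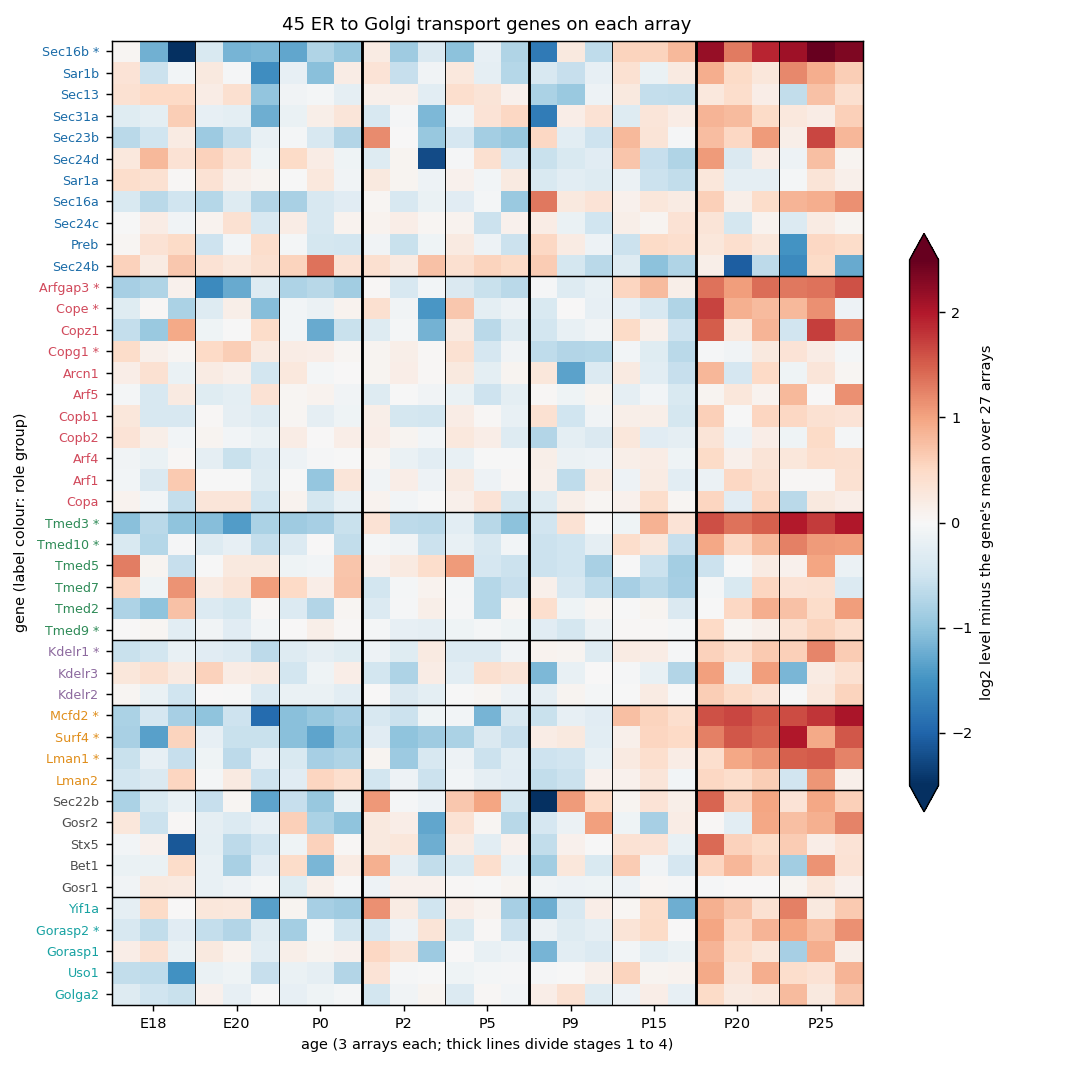
Log2 level of each of the 45 genes on each of the 27 arrays (columns, by age) minus the gene's own mean over the arrays, with rows grouped by role and an asterisk for an adjusted p under 0.05 in stage 4 minus stage 3. Most rows turn red at P20 and P25, whereas *Sec24b* turns blue on part of those arrays and *Gosr1* and *Copa* stay pale.

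**Figure D2:**
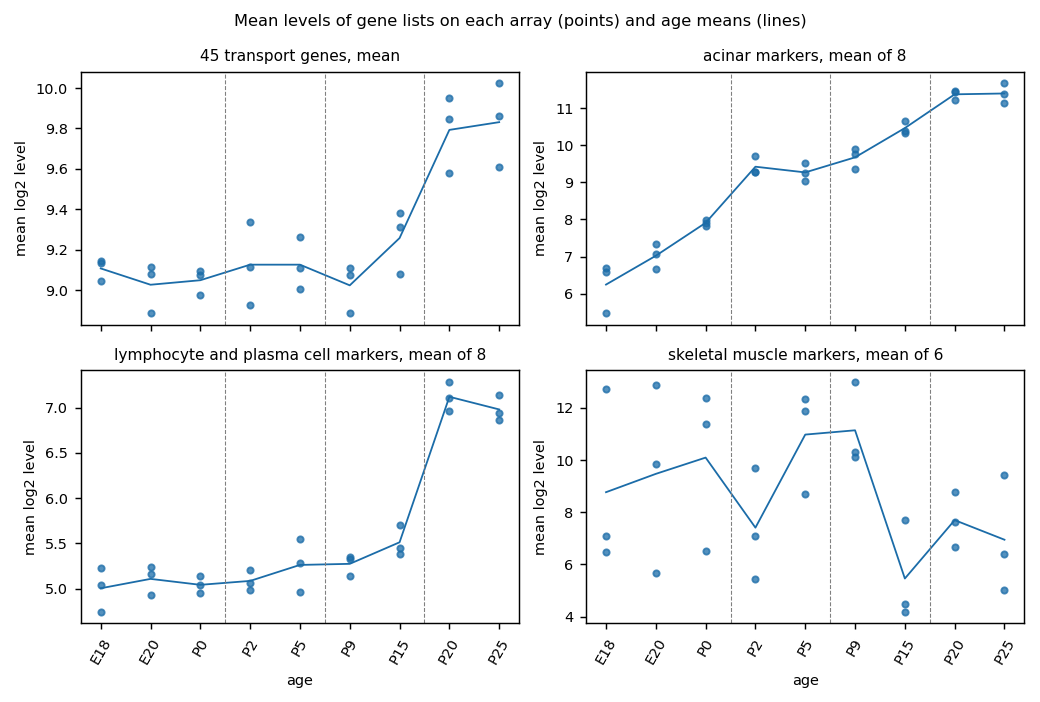
Mean log2 level on each array (points) and per age (lines) for the 45 transport genes, 8 acinar markers, 8 lymphocyte and plasma cell markers and 6 skeletal muscle markers, with dashed lines between stages. Acinar markers climb from E18 to P2, stay nearly level to P9 and rise again at P15 and P20. The transport genes and the lymphocyte and plasma cell markers stay low to P9 and also step up at P20.

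Promoters of the list were read from RefSeq (build GRCr8) as the 250 bases before and 50 bases after each gene's start, and 41 of the 47 genes matched. The windows were searched on both strands for TGACGTGG, a motif bound by XBP1 and ATF6 in the unfolded protein response. It lay in 8 of the 41 windows, against 0.595% of 33469 promoters of the genome and 0.819% of the 13192 promoters of genes with a probe set. In 6 of the 8 the copy nearest the start began within 50 bases of it, and *Stx5* held 2 copies. The 8 carriers are shown with 20 bases on each side where the window allows, along the strand of the gene, because they share a motif that the choice of the list did not use. Capitals mark TGACGTGG or its reverse complement CCACGTCA.
Sec23a (chr6:82440968-82441015, minus strand): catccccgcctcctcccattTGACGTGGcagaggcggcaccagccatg
Copa (chr13:87078878-87078917, plus strand): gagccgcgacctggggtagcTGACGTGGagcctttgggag
Copb1 (chr1:177872819-177872866, minus strand): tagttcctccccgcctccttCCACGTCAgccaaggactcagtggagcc
Copb2 (chr8:108040657-108040704, plus strand): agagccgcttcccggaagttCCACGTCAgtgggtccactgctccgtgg
Arf1 (chr10:44513997-44514044, minus strand): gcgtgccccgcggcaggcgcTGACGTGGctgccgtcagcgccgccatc
Arf4 (chr16:1903407-1903454, plus strand): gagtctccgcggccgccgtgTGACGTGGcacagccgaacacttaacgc
Kdelr3 (chr7:112959511-112959558, plus strand): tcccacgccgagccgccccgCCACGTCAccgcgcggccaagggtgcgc
Stx5 (chr1:215066523-215066570, plus strand): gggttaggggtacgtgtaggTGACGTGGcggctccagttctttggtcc

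None of the 8 carriers was among the 12 genes that rose in stage 4 against stage 3, of which 10 had a promoter in the table. The 7 measured carriers changed by between 0.00 (*Copa*) and 0.61 (*Stx5*) in that comparison, and none passed the test. In stage 4 against stage 1, *Stx5* (0.93 ± 0.30), *Copb1* (0.54 ± 0.17) and *Arf4* (0.51 ± 0.11) were called higher, where 27.2% of all probe sets were. *Copa*, *Copb2*, *Arf1* and *Kdelr3* were not called there. The shorter GACGTG, which TGACGTGG contains, lay in 19 of the 41 windows (all promoters 6.31%, those of genes with a probe set 8.45%) and in 2 of the 10 windows of genes that rose. These were *Copg1* and *Tmed3*, shown with the 6 bases or their reverse complement CACGTC in capitals.
Copg1 (chr4:121923954-121923999, plus strand): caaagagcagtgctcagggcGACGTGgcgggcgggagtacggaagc
Tmed3 (chr8:99129228-99129272, minus strand): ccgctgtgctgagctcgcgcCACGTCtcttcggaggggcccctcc

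The 5 bases CCACG, whose reverse complement ends TGACGTGG, lay in 33 of the 41 windows (all promoters 31.6%, those of genes with a probe set 43.4%) and in 6 of the 10. The ER stress response element in its full form, which ends in CCACG, lay in none of the 41 windows (all promoters 0.0657%, those of genes with a probe set 0.136%). The whole windows of the genes with the largest changes, *Sec16b* and *Mcfd2*, are shown because they carry neither TGACGTGG nor GACGTG, with CGTGG, the reverse complement of CCACG, in capitals. A match describes the letters of the window and was not tested as a binding site.
Sec16b (chr13:72217583-72217882, plus strand): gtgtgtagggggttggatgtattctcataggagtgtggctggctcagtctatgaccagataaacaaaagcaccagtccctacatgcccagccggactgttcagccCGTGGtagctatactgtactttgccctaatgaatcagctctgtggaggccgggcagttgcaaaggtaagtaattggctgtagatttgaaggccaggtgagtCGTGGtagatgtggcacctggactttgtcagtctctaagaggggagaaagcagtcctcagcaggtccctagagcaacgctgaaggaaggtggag
Mcfd2 (chr6:13027800-13028099, plus strand): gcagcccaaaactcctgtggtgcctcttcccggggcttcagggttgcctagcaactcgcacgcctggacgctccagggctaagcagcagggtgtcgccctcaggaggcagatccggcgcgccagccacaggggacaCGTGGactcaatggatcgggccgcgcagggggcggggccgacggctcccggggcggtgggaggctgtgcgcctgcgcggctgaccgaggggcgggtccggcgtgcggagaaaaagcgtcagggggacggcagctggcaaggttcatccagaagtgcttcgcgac

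Of the 11 measured genes of the COPII coat and its assembly, 1 rose in stage 4 against stage 3 and none fell. In that comparison 4.09% of all probe sets were called higher and 4.27% lower. The median change of the 11 genes was 0.58. *Sec16b*, a scaffold protein of ER exit sites, had the largest change of all members. Its log2 level was 7.51, 8.37 and 9.40 (lowest, median and highest array) in stage 4, against 4.45, 6.61 and 7.02 in stage 3. No stage 4 array overlapped a stage 3 array, and the lowest of the 12 were the P9 arrays. The change was 2.21 ± 0.39 on the log2 scale (SE), or 4.63-fold, with an adjusted p of 0.000999. By age *Sec16b* averaged 5.50 ± 1.00 at P9, 6.85 ± 0.14 at P15, 8.01 ± 0.45 at P20 and 8.76 ± 0.56 at P25 (SD, n = 3 each). Its steepest step lay between P9 and P15 (1.355 ± 0.553), against 1.156 ± 0.553 from P15 to P20, and neither was called. The P9 value of 4.45 came from P9 replicate 1, the array with the lowest weight in a fit with array weights. The other P9 arrays were at 5.58 and 6.46, so which step was the steeper depended on that array.

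*Sec16a*, the longer paralog and the general scaffold of exit sites, behaved differently. It was at 8.64, 9.22 and 9.63 in stage 4, against 8.59, 8.75 and 9.81 in stage 3. The ranges overlapped fully and the highest array of the 12 was a P9 array. Its change was 0.27 ± 0.19 (adjusted p = 0.398). Over the 12 arrays the log2 difference *Sec16b* minus *Sec16a* changed by 1.94 (exact two-sided permutation test, p = 0.00216, the smallest that 6 against 6 arrays allow, adjusted p = 0.026 over 12 pairs). It was between -1.13 and -0.0013 on stage 4 arrays and between -5.35 and -1.69 on stage 3 arrays. The stages stayed fully separated with any 1 of the 12 arrays left out, with a difference of 1.42 to 2.15. The adjusted p was then 0.026 without a stage 3 array and 0.052 to 0.078 without a stage 4 array, and the pair did not pass with the most variable probe set of each gene.

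The inner coat and cargo-binding subunits did not pass the test. *Sar1b* (0.86 ± 0.28), one of the GTPases that start the coat, *Sec13* (0.70 ± 0.24) and *Sec31a* (0.70 ± 0.30), the outer cage, and *Sec23b* (0.69 ± 0.31), the inner coat, had positive changes. The SEC24 cargo adaptors gave 0.58 ± 0.34 for *Sec24d*, -0.03 ± 0.18 for *Sec24c* and -0.39 ± 0.35 for *Sec24b*. The other probe sets of *Sec24c* (0.32 ± 0.44) and *Sec24b* (0.05 ± 0.36) were positive and did not pass either, so the sign of both genes depended on the probe set. The difference between *Sec24d* and *Sec24b* changed by 0.97 (exact two-sided permutation test, p = 0.022, adjusted p = 0.13). *Preb*, the exchange factor that loads SAR1 with GTP, changed by -0.08 ± 0.28. By brightest probe set, the 3 negative changes in the whole list were thus those of *Sec24b*, *Preb* and *Sec24c*.

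**Figure D3:**
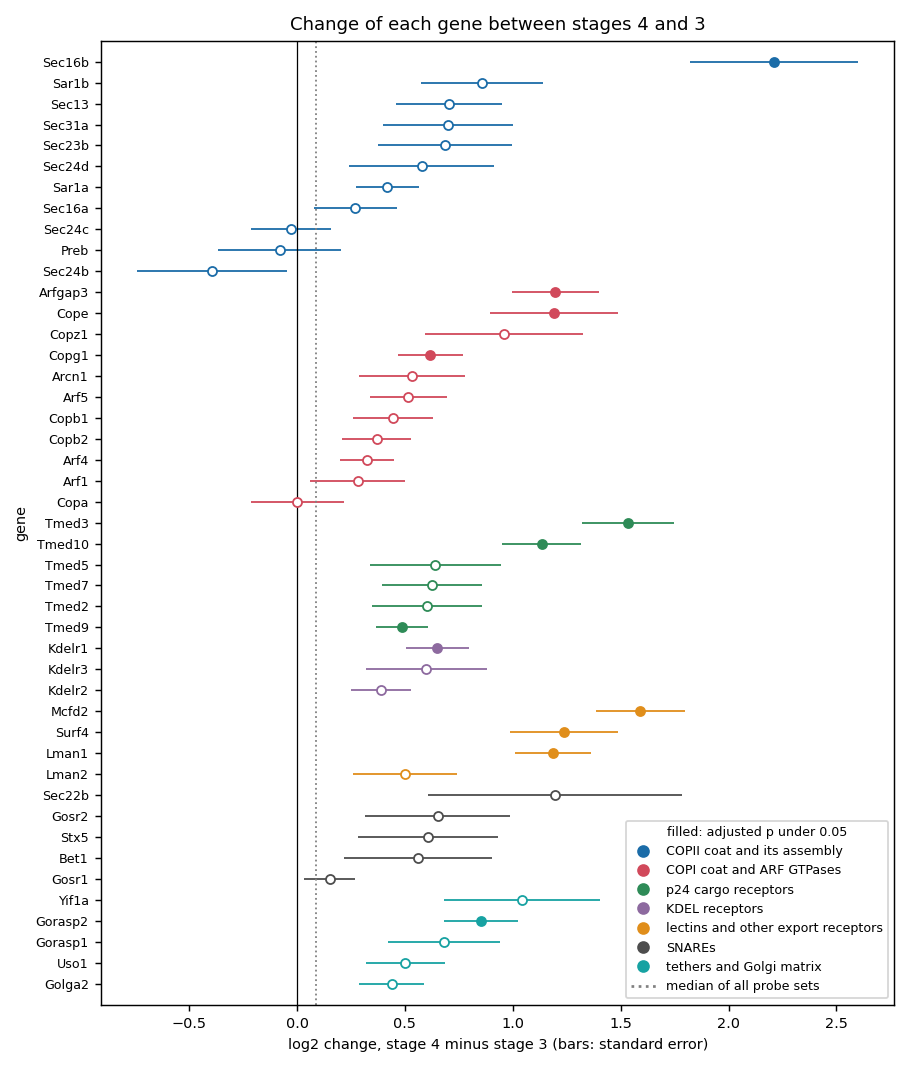
Log2 change in stage 4 minus stage 3 for each of the 45 genes (points, with standard errors as bars), coloured and grouped by role, filled where the adjusted p is under 0.05, with the median of all probe sets as a dotted line. Filled points occur in 6 of the 7 role groups and all lie on the positive side, with *Sec16b* farthest out at 2.21.

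COPI coat and ARF genes rose for 3 of 11 members (4.09% of all probe sets), with a median change of 0.52. All 11 changes were above 0, against 57.1% of all probe sets. *Arfgap3*, an activator of GTP hydrolysis on ARF1 that lets the COPI coat come off, was at 9.92, 10.23 and 10.46 in stage 4, against 8.55, 8.92 and 9.65 in stage 3. The 2 sets of arrays did not overlap. The change was 1.20 ± 0.20, or 2.29-fold (adjusted p = 0.000600). *Cope*, the epsilon subunit of the coat, was at 9.04, 10.01 and 10.85 in stage 4, against 8.41, 8.87 and 9.17 in stage 3. Of the 6 stage 4 arrays 5 lay above all stage 3 arrays. Its change was 1.19 ± 0.30 (2.28-fold, adjusted p = 0.0152). *Copg1*, a gamma subunit, changed by 0.62 ± 0.15 (adjusted p = 0.0140) and was the only gene of the 12 that was not also higher than in stage 1. It averaged 11.38 ± 0.21 in stage 1 (SD, n = 9), 11.13 ± 0.26 in stage 2, 10.60 ± 0.27 in stage 3 and 11.22 ± 0.18 in stage 4 (SD, n = 6 each).

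The other coat subunits did not pass. The changes were 0.96 ± 0.37 for *Copz1*, 0.53 ± 0.25 for *Arcn1*, 0.45 ± 0.19 for *Copb1*, 0.37 ± 0.16 for *Copb2* and 0.00 ± 0.21 for *Copa*, all subunits of the same heptameric coat. The GTPases *Arf5* (0.52 ± 0.18), *Arf4* (0.32 ± 0.12) and *Arf1* (0.28 ± 0.22) did not pass either. No pair among the 3 *Arf* genes changed unequally past the threshold, with differences of 0.04 to 0.24.

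Among the 6 p24 cargo receptors, small membrane proteins that cycle between ER and Golgi, 3 rose (4.09% of all probe sets). The median change was 0.63. *Tmed3* was at 11.45, 11.76 and 12.09 in stage 4, against 9.61, 10.25 and 10.96 in stage 3, with no overlap. Its change of 1.54 ± 0.21 (2.90-fold, adjusted p = 7.7e-05) was the largest of the 6. *Tmed10* was at 10.22, 10.71 and 10.95 in stage 4, against 9.12, 9.33 and 10.14 in stage 3, again with no overlap. It changed by 1.13 ± 0.18 (2.19-fold, adjusted p = 0.000424). *Tmed9* changed by 0.49 ± 0.12 (1.40-fold, adjusted p = 0.0145), the smallest of the called changes. *Tmed5* (0.64 ± 0.30), *Tmed7* (0.63 ± 0.23) and *Tmed2* (0.60 ± 0.26) did not pass.

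KDEL receptors retrieve ER chaperones from the Golgi, and 1 of 3 rose (4.09% of all probe sets). *Kdelr1* was at 10.38, 10.57 and 11.17 in stage 4, against 9.64, 10.04 and 10.15 in stage 3. The arrays did not overlap, although the highest, P25 replicate 2, stood apart from the other 5. The change was 0.65 ± 0.15 (1.57-fold, adjusted p = 0.00795). *Kdelr3* (0.60 ± 0.28) and *Kdelr2* (0.39 ± 0.14) did not pass, and no pair of the 3 receptors changed unequally past the threshold.

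The lectins and other export receptors had the largest median change of the 7 role groups (1.21). Of the 4 genes 3 rose (4.09% of all probe sets). *Mcfd2* encodes the calcium-binding partner of the lectin LMAN1, and in humans the pair exports blood coagulation factors. It was at 10.89, 11.01 and 11.41 in stage 4, against 8.81, 9.48 and 10.12 in stage 3. No array overlapped, and the change was 1.59 ± 0.21 (3.01-fold, adjusted p = 3.89e-05). *Lman1* itself was at 9.53, 10.29 and 10.63 in stage 4, against 8.59, 9.10 and 9.53 in stage 3, which met at the second decimal without overlapping. It changed by 1.18 ± 0.18 (2.27-fold, adjusted p = 0.000173).

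*Surf4*, a receptor for soluble cargo, was at 10.03, 10.58 and 11.07 in stage 4, against 8.82, 9.29 and 9.61 in stage 3. The arrays were fully separated. Its change was 1.24 ± 0.25 (2.36-fold, adjusted p = 0.00302), and a further probe set of the gene gave 1.24 ± 0.21. *Lman2*, a lectin related to LMAN1, changed by 0.50 ± 0.24 and did not pass.

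**Figure D4:**
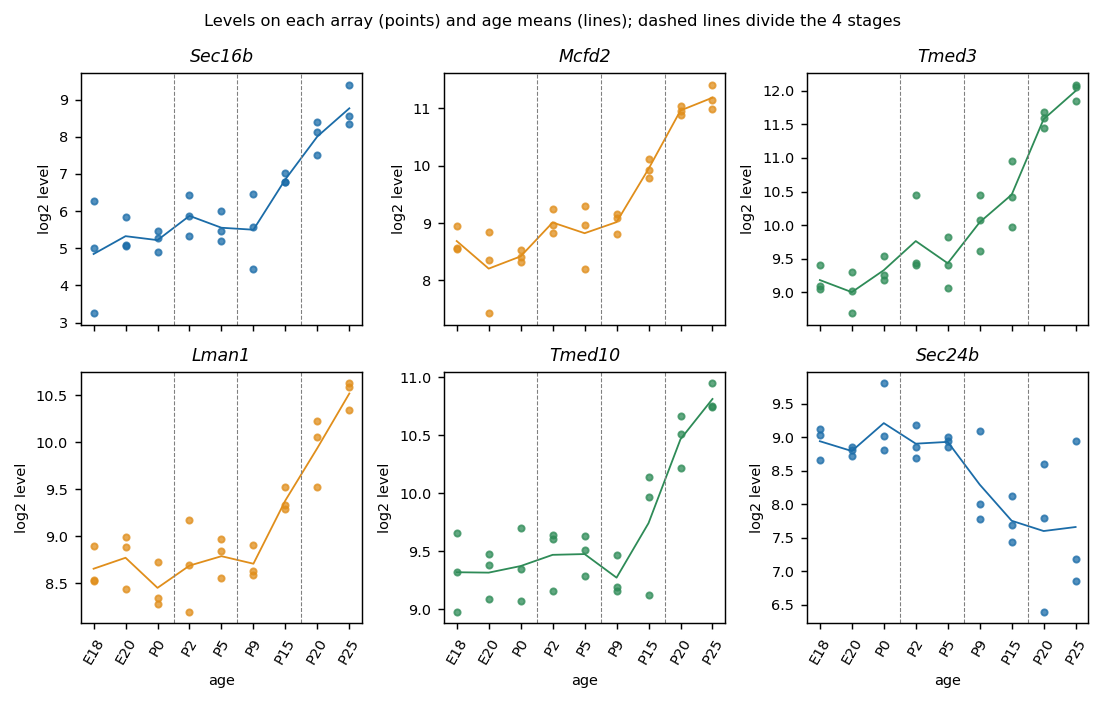
Log2 levels of 6 genes on each array (points) with the age means (lines), from E18 to P25, with dashed lines between stages. *Sec16b*, *Mcfd2*, *Tmed3*, *Lman1* and *Tmed10* lie highest at P20 and P25, whereas *Sec24b* lies lower from P9 on and scatters widely at P20 and P25.

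None of the 5 SNAREs passed the test by its brightest probe set. All 5 changes were positive, against 57.1% of all probe sets, with a median of 0.61. *Sec22b*, a SNARE of ER-derived vesicles, was at 8.54, 8.98 and 9.66 in stage 4, against 3.87, 8.44 and 9.26 in stage 3. The value of 3.87 came from P9 replicate 1 alone, and without that array the change was 0.34 ± 0.30, against 1.19 ± 0.59 with it. A second, dimmer probe set of *Sec22b* was called higher over all arrays (0.76 ± 0.22, adjusted p = 0.0336). *Gosr2* (0.65 ± 0.34), *Stx5* (0.61 ± 0.32) and *Bet1* (0.56 ± 0.34), which form a complex with SEC22B at the Golgi, and *Gosr1* (0.15 ± 0.12) did not pass. The brightest probe set of *Gosr1* averaged 13.44, where the highest value of any probe set was 14.63. Its dimmer probe sets averaged 7.73 and 6.44 and were not called either (0.12 ± 0.33 and 0.17 ± 0.19).

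Of the 5 tether and Golgi matrix genes 1 rose (4.09% of all probe sets), with a median change of 0.68. *Gorasp2*, a stacking protein of the Golgi, was at 8.30, 8.69 and 8.92 in stage 4, against 7.45, 7.70 and 8.26 in stage 3. The arrays did not overlap, and the change was 0.85 ± 0.17 (1.81-fold, adjusted p = 0.00284). Its paralog *Gorasp1* changed by 0.68 ± 0.26 and did not pass, and the difference between them was 0.17 (exact two-sided permutation test, adjusted p = 0.78). *Yif1a* (1.04 ± 0.36), *Uso1* (0.50 ± 0.18), the vesicle tether p115, and *Golga2* (0.44 ± 0.15), the matrix protein GM130, did not pass.

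**Figure D5:**
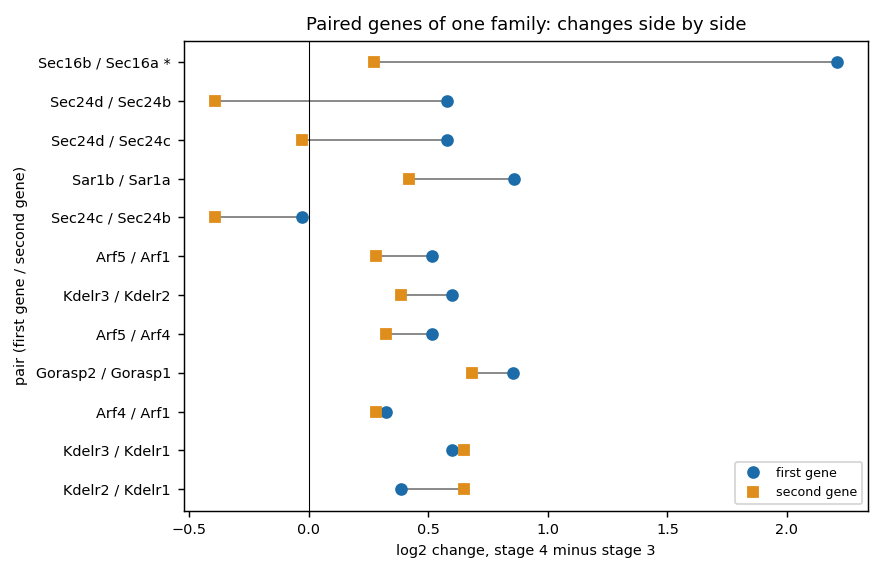
Log2 change in stage 4 minus stage 3 of both genes of 12 pairs (first gene as a circle, second as a square, joined by a line), with an asterisk for an adjusted p under 0.05 in the exact permutation test of their difference. Only *Sec16b* and *Sec16a* carry an asterisk, with 2.21 and 0.27.

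Many genes had further probe sets. Of the 45 genes 18 had 20 others in all. Among those, 5 were called higher in stage 4 against stage 3 (4.09% of all probe sets) and none lower (4.27%). These belonged to *Surf4* and *Tmed9* and, among genes not called by their brightest probe set, to *Sar1a* (1.08 ± 0.27, adjusted p = 0.0140), *Tmed2* (0.87 ± 0.19, adjusted p = 0.00589) and *Sec22b*. Of the 12 genes that rose, 3 had 1 other probe set each, and that of *Copg1* was not called (0.33 ± 0.27, adjusted p = 0.471).

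The genes were also compared between the last stage and the first. In stage 4 against stage 1, 26 of the 45 rose and 1 fell, where 27.2% of all probe sets were called higher and 17.8% lower. This comparison spans the change from sectioned heads to dissected glands, and the median of all probe sets was itself shifted by 0.19. Changes relative to that median were 3.07 for *Sec16b*, 2.44 for *Mcfd2*, 2.42 for *Tmed3*, 1.96 for *Surf4* and 1.94 for *Arfgap3*, the largest of the members. Of the 12 genes that rose against stage 3, 11 were called higher here too. The 15 others included *Sec16a* (1.22 ± 0.17), *Uso1* (1.17 ± 0.17), *Sec23b* (1.26 ± 0.28) and *Kdelr2* (0.56 ± 0.13). With the lymphocyte and plasma cell markers as a covariate, none of the 45 were called. The mean of those markers was 6.86 to 7.29 on stage 4 arrays and 4.75 to 5.24 on stage 1 arrays. Its level and the stage thus cannot be told apart in that fit. In stage 1, replicate 1 of E18, E20 and P0 also carried epidermis markers at a mean log2 level of 8.06 to 8.82, against 4.45 to 5.57 on the other 6 arrays, and with muscle, epidermis and cartilage markers as covariates 20 genes were higher and 1 lower.

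*Sec24b*, a SEC24 cargo adaptor, was the only gene that fell. It was at 6.40, 7.50 and 8.94 in stage 4, against 8.66, 8.85 and 9.81 in stage 1. Of the 6 stage 4 arrays 5 lay below all stage 1 arrays. The change was -1.35 ± 0.32 (0.39-fold, adjusted p = 0.00192), or -1.54 relative to all probe sets. A second probe set of the gene changed the other way, by 0.37, and was not called (adjusted p = 0.363), nor was the mean of both (-0.49 ± 0.21).

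Earlier steps called almost none of the genes. In stage 2 against stage 1 no gene rose and *Tmed7* fell, where 1.63% of all probe sets were called higher and 1.33% lower. *Tmed7* changed by -0.79 ± 0.21 (adjusted p = 0.0455), with 6.79 to 7.60 on stage 2 arrays and 7.40 to 8.64 on stage 1 arrays. The ranges overlapped, its most variable probe set gave 0.28, and its call was lost when any 1 of 16 arrays was left out. In stage 3 against stage 2 none of the 45 were called by limma, where 0.28% of all probe sets were called higher and 0.48% lower. An unadjusted p under 0.05 was reached there by 10 of the 45 genes and by 4817 of the 31042 probe sets.

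Of the steps between single ages, that to P20 had the largest median change. In P20 against P15, with 3 arrays on each side, none of the 45 passed the adjusted threshold. Of all probe sets 0.248% were called higher and 0.11% lower. An unadjusted p under 0.05 was reached by 13 of the 45 genes and by 2553 of the 31042 probe sets. The median change was 0.49, against 0.04 over all probe sets, and 43 of the 45 changes were positive. Of the 8 steps between neighbouring ages this one held the steepest rise of 23 of the 45 genes (51.1%), against 11.6% of all probe sets. The step before it, P15 against P9, held that of 9 genes (20%), *Sec16b* and *Lman1* among them, against 12.3% of all probe sets. Its median change was 0.26, against -0.01 over all probe sets. For *Sec16b* and *Sec22b*, both among the 9, the lowest P9 value came from P9 replicate 1, the array with the lowest weight. P15 against P9 called none of the 45, where 0.0226% of all probe sets were called higher and 0.0387% lower. An unadjusted p under 0.05 was reached by 4 of the 45 genes and by 1898 of the 31042 probe sets. In P25 against P20 the median change was 0.06, against 0.10 over all probe sets. None of the 45 were called, where 0.232% of all probe sets were called higher and 0.689% lower. An unadjusted p under 0.05 was reached by 2 of the 45 genes and by 4872 of the 31042 probe sets.

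Likeness among the 45 genes was modest. Over the 27 arrays, which share ages and litters across genes, the median pairwise Pearson correlation was 0.30, and 0.10 for deviations from the age means.

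Further genes of the pathway changed in both directions. Among 24 measured further genes of ER exit, coats and cargo receptors, 4 rose and 1 fell in stage 4 against stage 3. The median change was 0.02, with a range of -0.91 to 1.24. Of all probe sets 4.09% were called higher in that comparison and 4.27% lower. In stage 4 against stage 1, 7 of the 24 rose and 5 fell, where 27.2% of all probe sets were called higher and 17.8% lower. The F test over the 9 ages was passed by 12 of the 24, where 24.5% of all probe sets passed. *Copz2*, a second zeta subunit of COPI, changed by 1.24 ± 0.21 (adjusted p = 0.000723), *Ergic1*, a cycling protein of the ER to Golgi compartment, by 1.07 ± 0.19 (adjusted p = 0.000928), and *Arfgap1*, a further ARF GTPase activator, by 1.03 ± 0.21 (adjusted p = 0.00348). *Tmed1*, a further p24 protein, was the gene that fell, by -0.91 ± 0.24 (adjusted p = 0.0202). Among 41 further SNAREs, tethers and Rab GTPases 5 rose and 1 fell in stage 4 against stage 3, with a median of 0.24. They were led by *Stx18* (1.32 ± 0.29), a SNARE of the ER, *Sec22c* (1.49 ± 0.38), *Yipf5* (0.86 ± 0.22) and *Bet1l* (1.04 ± 0.30), a SNARE of the Golgi.

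Genes for coats of the next compartments were read in the same comparison. Of 28 genes for clathrin, its adaptors and retromer 1 rose and none fell, with a median of 0.12, where 4.09% of all probe sets were called higher. The one was *Ap3s1*, a subunit of the adaptor AP-3 (1.12 ± 0.18, adjusted p = 0.000444). *Cltb*, a clathrin light chain (0.70 ± 0.23), *Ap2a2* (0.54 ± 0.19) and *Ap3m1* (0.73 ± 0.31) did not pass. Of 14 saliva protein genes 11 rose and none fell, with a median of 4.24.

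Of 10 transcription factors that drive secretory genes 5 rose in stage 4 against stage 3 and none fell, with a median of 0.54. Of all probe sets 4.09% were called higher and 4.27% lower. *Bhlha15*, also called Mist1, the acinar regulator of the secretory apparatus, changed by 1.90 ± 0.36 (adjusted p = 0.00195). *Atf4*, a factor of the integrated stress response, changed by 0.81 ± 0.15 (adjusted p = 0.00189) and *Atf6b*, a relative of ATF6, by 1.21 ± 0.28 (adjusted p = 0.00899). *Xbp1*, the factor that expands the ER in secretory cells, was at 11.3 to 11.7 on stage 4 arrays and at 9.74 to 11.2 on stage 3 arrays, a change of 0.81 ± 0.21 (adjusted p = 0.0169). Over the 27 arrays, which share ages, the correlation with *Xbp1* spanned -0.65 for *Sec24b* to 0.88 for *Mcfd2*, and for the carriers of TGACGTGG from -0.10 for *Kdelr3* to 0.74 for *Arf4*. *Bhlha15* and *Xbp1* are also among the 8 acinar markers, and *Xbp1* is used by plasma cells too.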

How the data were processed

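Per the labels and methods, the authors deposited log2 expression values from the robust multi-array average (RMA) method, which corrects background, normalises arrays against each other and summarises probes; software versions are not given in the sources used here. They were used as deposited. The table held 31099 probe sets, of which 57 controls were left out and 31042 tested; 20826 were paired with 1 gene symbol, 436 with several and 9780 with none, and 20758 matched RefSeq by gene ID. Array medians lay between 5.91 and 6.13 and correlations within an age between 0.873 and 0.962; precision is limited by the number of arrays. Each probe set was fitted with limma (3.58.1, R 4.3.3), an age mean per age and 18 residual degrees of freedom. P-values were two-sided and Benjamini-Hochberg adjusted over all 31042 probe sets at 0.05; errors are standard errors unless named SD. Differences between paired genes were tested by exact permutation of 12 arrays, adjusted over the 12 measured pairs of 16. The fit was tested on simulated data.

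Full array values were given for the 10 genes with the largest called change in stage 4 minus stage 3, called falls, the largest |t| of each of 7 role groups and both genes of a pair past its threshold, and from each pathway list the 4 genes with the largest |t|; *Copg1*, *Tmed9*, *Sec24b*, *Tmed7*, the plasma cell genes and *Xbp1* with its correlations were added after values were seen. Members and lists were chosen with earlier results of these data known. Alternatives covered scaling, a filter on dim probe sets, array weights, replicate number, marker and RNA quality covariates, ages in the fit, the probe set per gene, an unmoderated analysis of variance, and each array left out.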

Additional observations from a re-analysis of the deposited data

Results flagged for a closer look

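Each gene's arrays were screened within each stage for 1 array that lay far from the other 5 or 8 (Dixon's ratio). Chance alone marks about 1 group in 20, and 20 of 180 groups were marked. In stage 4 these were *Preb* on P25 replicate 1 at 5.21, *Kdelr1* on P25 replicate 2 at 11.17 and *Stx5* on P20 replicate 1 at 9.93. In stage 3, 4 of the marked values lay on P9 replicate 1, namely *Sec16a* at 9.81, *Sec31a* at 8.21, *Sec22b* at 3.87 and *Gorasp1* at 6.10, and that array had the lowest weight of all 27 (0.45) in a fit with array weights. The others in stage 3 were on P15 replicate 1, *Sec24d* at 9.14 and *Uso1* at 9.70. In stage 2 the marked values were *Sec24c* at 9.81 on P5 replicate 2, *Sec24d* at 6.22 and *Stx5* at 7.30 on P2 replicate 3, and *Uso1* at 9.48 on P2 replicate 1. In stage 1, E18 replicate 3 was low for *Sec16b* at 3.25, *Stx5* at 6.39 and *Uso1* at 7.63, and E20 replicate 3 was low for *Sec13* at 9.57, *Sec31a* at 8.73 and *Mcfd2* at 7.43. *Sec24b* was high on P0 replicate 2 at 9.81. All are log2 levels.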

How the results depend on the processing

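The count of 12 genes in stage 4 minus stage 3 was 12 to 15 with any 1 array left out and 10 to 16 under 10 of the 13 other settings. It was 0 with the lymphocyte and plasma cell markers as a covariate and, in settings added after seeing the data, 0 with those markers other than *Jchain* and 4 with P15 as the only earlier age; with either covariate the 12 changes stayed positive, at 0.13 to 3.82 and 0.43 to 2.96, with larger errors. The 2 covariates gave 2 and 5 genes for the F test (17; 13 to 18 with 1 array left out), 0 and 3 for stage 4 minus stage 1 (27; 24 to 28) and 0 each for stage 2 minus stage 1. That count of 1 was also 0 with the most variable probe set or only the ages compared, 2 with array weights and 0 to 1 with 1 array left out, and *Tmed7* turned to 0.28 with its most variable probe set. Stage 3 minus stage 2, with none called, gave 1 after quantile normalisation, 5 with array weights and 0 to 1 with 1 array left out. P20 minus P15, with none called, gave 1 with array weights or the mean of a gene's probe sets. The 1 unequal pair was lost (0) with the most variable probe set and the count spanned 0 to 2 with 1 array left out, although the stages stayed separated for that pair each time (adjusted p 0.026 to 0.078). The causes were not tested, and the level of the lymphocyte and plasma cell covariate does not overlap between stage 4 and either stage 3 or stage 1. A replicate block gave 13 genes in stage 4 minus stage 3, 28 in stage 4 minus stage 1 and 17 in the F test; deviations of same-numbered arrays correlated with r between -0.11 and 0.46 (mean 0.03) and those of others with r between -0.28 and 0.14 (mean -0.01), so the number was not taken to pair the arrays at all ages, although replicate 1 of E18, E20 and P0 shared high epidermis markers.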
